A study of Mus musculus with 10 samples.

Results

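The 5 lysyl oxidase family genes, Lox, Loxl1, Loxl2, Loxl3 and Loxl4, were followed through the chromatin of mouse cardiac fibroblasts. CUT&Tag, in which an antibody guides a transposase to its target so that the DNA around it is tagged and sequenced, had been performed on primary fibroblasts of the mouse heart. Each region listed in the deposited tables carries the name of 1 gene, and all 73 regions named for a family member were taken, of 340994 in 5 tables. They comprised 26 of 72990 regions in the c-JUN table, 10 of 58633 in the SMAD3 table, 23 of 68767 in the NFATC2 table, 7 of 74751 in the table of lactylation of histone H3 at lysine 9 (H3K9lc), and 7 of 65853 in a second H3K9lc table. The first 4 tables pair a library of TGF-β treated cells, called TGF, with a library of cells that received an siRNA against the glycolytic enzyme HK1 before TGF-β, called siHK1. The second H3K9lc table pairs a library labelled as control, called NC, with the TGF library. The SI library of H3K9lc is called siHK1, and NC is taken as H3K9lc, because their labels name those tables. There was 1 library for each condition and antibody, in 9 libraries used. The JUN, SMAD3 and NFATC2 libraries came from 1 biological repeat. A control siRNA in the TGF or NC cells, and the sex, age and number of mice, are not given for these libraries in the sources used here. No value therefore has a replicate error, no difference was tested, and every statement compares libraries, not conditions. These libraries hold no RNA or protein measurement, so neither the depletion of HK1 nor the expression of the members was measured.

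Lysyl oxidases are secreted, copper-dependent amine oxidases. They oxidise lysine residues of collagen and elastin, and the resulting aldehydes condense into the covalent crosslinks that make the extracellular matrix stiff and resistant to turnover. Lox is the founding member and acts on both fibrillar collagen and elastin, and it is released from its propeptide by the protease Bmp1. Loxl1 is best known for elastic fibre assembly. Loxl2, Loxl3 and Loxl4 share scavenger receptor cysteine-rich domains ahead of the catalytic domain, and Loxl2 crosslinks collagen IV of basement membranes and has been tied to fibrosis of the heart. Activated fibroblasts are a main source of these enzymes in scar tissue. c-JUN is a subunit of the AP-1 transcription factor, SMAD3 carries the TGF-β signal to chromatin, and NFATC2 is a calcium-responsive factor that can bind beside AP-1.

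The stretches of DNA on which the binding results turn are given on GRCm38, 5′ to 3′ along the strand of the gene. At Loxl1 there were 3 intervals that lay in a region of all 3 factor tables, at chr9:58297317-58297518 and chr9:58299369-58299569 inside the gene and at chr9:58313214-58313413 just upstream of its start. The central 200 bp are given of the region named for Loxl2 with most JUN reads, at chr14:69642227-69642426, of the Loxl2 region called higher for JUN in siHK1, at chr14:69635693-69635892, of the Loxl4 region called lower for JUN, at chr19:42676652-42676851, and of the Loxl4 interval shared by H3K9lc and JUN regions, at chr19:42639053-42639252. Capitals mark the AP-1 motif TGANTCA and the related CRE motif TGACGTCA, each of which reads the same on both strands; the CRE motif was added after the Loxl1 sequence had been read.
Loxl1 intron, distal: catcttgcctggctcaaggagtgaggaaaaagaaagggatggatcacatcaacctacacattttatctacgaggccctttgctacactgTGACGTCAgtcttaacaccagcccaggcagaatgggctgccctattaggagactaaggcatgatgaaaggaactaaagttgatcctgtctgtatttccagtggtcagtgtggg
Loxl1 intron, strongest: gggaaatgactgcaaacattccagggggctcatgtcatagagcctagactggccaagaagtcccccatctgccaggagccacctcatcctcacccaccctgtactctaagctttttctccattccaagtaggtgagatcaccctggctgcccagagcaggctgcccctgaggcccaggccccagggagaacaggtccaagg
Loxl1 upstream of start: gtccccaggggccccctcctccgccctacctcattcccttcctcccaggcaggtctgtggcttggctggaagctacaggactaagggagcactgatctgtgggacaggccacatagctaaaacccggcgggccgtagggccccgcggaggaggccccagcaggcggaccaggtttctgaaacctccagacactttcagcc
Loxl2 intron, most JUN reads: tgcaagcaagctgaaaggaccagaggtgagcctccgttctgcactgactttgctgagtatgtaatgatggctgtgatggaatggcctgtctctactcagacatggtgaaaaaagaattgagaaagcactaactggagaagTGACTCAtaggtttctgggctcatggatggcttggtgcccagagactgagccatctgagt
Loxl2 intron, JUN higher: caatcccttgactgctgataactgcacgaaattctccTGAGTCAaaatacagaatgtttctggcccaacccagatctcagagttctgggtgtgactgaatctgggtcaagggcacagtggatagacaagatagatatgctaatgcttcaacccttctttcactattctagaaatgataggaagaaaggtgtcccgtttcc
Loxl4 distal, JUN lower: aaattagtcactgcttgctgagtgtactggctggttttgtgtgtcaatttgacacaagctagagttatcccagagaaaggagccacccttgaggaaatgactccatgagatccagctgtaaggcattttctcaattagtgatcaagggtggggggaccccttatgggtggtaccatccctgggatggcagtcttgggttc
Loxl4 distal, H3K9lc and JUN: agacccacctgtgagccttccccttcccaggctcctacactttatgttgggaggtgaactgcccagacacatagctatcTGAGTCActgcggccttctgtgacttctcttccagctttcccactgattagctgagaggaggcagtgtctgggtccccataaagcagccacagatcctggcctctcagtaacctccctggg

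TGANTCA was found in the central 200 bp of 9 of the 26 JUN regions of the family (34.6%), beside 29.3% of all JUN regions. By gene, it was found in 5 of 8 regions of Loxl2, 2 of 6 of Lox, 1 of 7 of Loxl1 and 1 of 5 of Loxl4. Over whole regions, which were 182 to 1721 bp wide, it was found in 5 of 6 regions of Lox, 4 of 5 of Loxl4, 5 of 8 of Loxl2 and 3 of 7 of Loxl1. The order of the genes thus rests on the window, and the share of all JUN regions was not counted over whole regions. None of the 3 Loxl1 intervals printed above held TGANTCA, although 1 of them lay within the Loxl1 region with most JUN reads. The distal intronic interval held TGACGTCA, which 0.645% of all JUN regions hold in their centre. CAGAC, the SMAD motif, searched on both strands, was found in the centre of 6 of 10 SMAD3 regions of the family (60%) and of 38.2% of all SMAD3 regions. GGAAA, the NFAT motif, likewise on both strands, was found in 12 of 23 NFATC2 regions (52.2%) and in 42.9% of all. These are matches of letters in a window and were not tested as binding sites.

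The read totals over all listed regions differed within each pair. They were 4215447 in TGF and 2271336 in siHK1 for JUN, 563562 and 399897 for SMAD3, 575706 and 354599 for NFATC2, and 2490853 and 1419023 for H3K9lc, whereas NC held 115572 against 2313288 in TGF. These are sums over listed regions, not depths of whole libraries. Reads were scaled to equal totals within a table, and ratios are log2 of the second library over the first with 0.5 added to each count. Each ratio carries an exact 95% interval that covers counting error only, and reads copied by PCR are not independent molecules. A region or gene was called lower or higher where the ratio was at least 2-fold and the interval left out equal levels. A change common to all regions would be removed by this scaling: without it, the siHK1 library had fewer reads in all 4 tables. Of the marker genes of fibroblasts, 7 of 8 had a JUN region within 3 kb of a start site, at 96 reads per kb in TGF, and so did 1 of 5 cardiomyocyte markers (51.9 per kb), 3 of 4 endothelial markers (88.4), 3 of 5 macrophage and leukocyte markers (108) and 1 of 3 mural markers (39.9). The level at leukocyte markers was thus not below that at fibroblast markers, occupancy is not expression, and the part of other cell types in the values below was not tested.

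Regions of the members lay in very different places. For Loxl1 the factor regions clustered inside the gene, whereas for Lox and Loxl4 most JUN regions lay upstream, up to 43.0 and 63.9 kb from the gene start. The regions named for Loxl2 ended 37.9 kb into a gene of 86.8 kb, because the regions in its second part carry the name of a microRNA gene, Mir6950. Loxl3 had no JUN region of its own name, and the JUN region directly upstream of its start carries the name of the neighbouring gene Dok1. No H3K9lc region in the TGF and siHK1 table was named for Loxl1, Loxl2 or Loxl3.

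**Figure D1:**
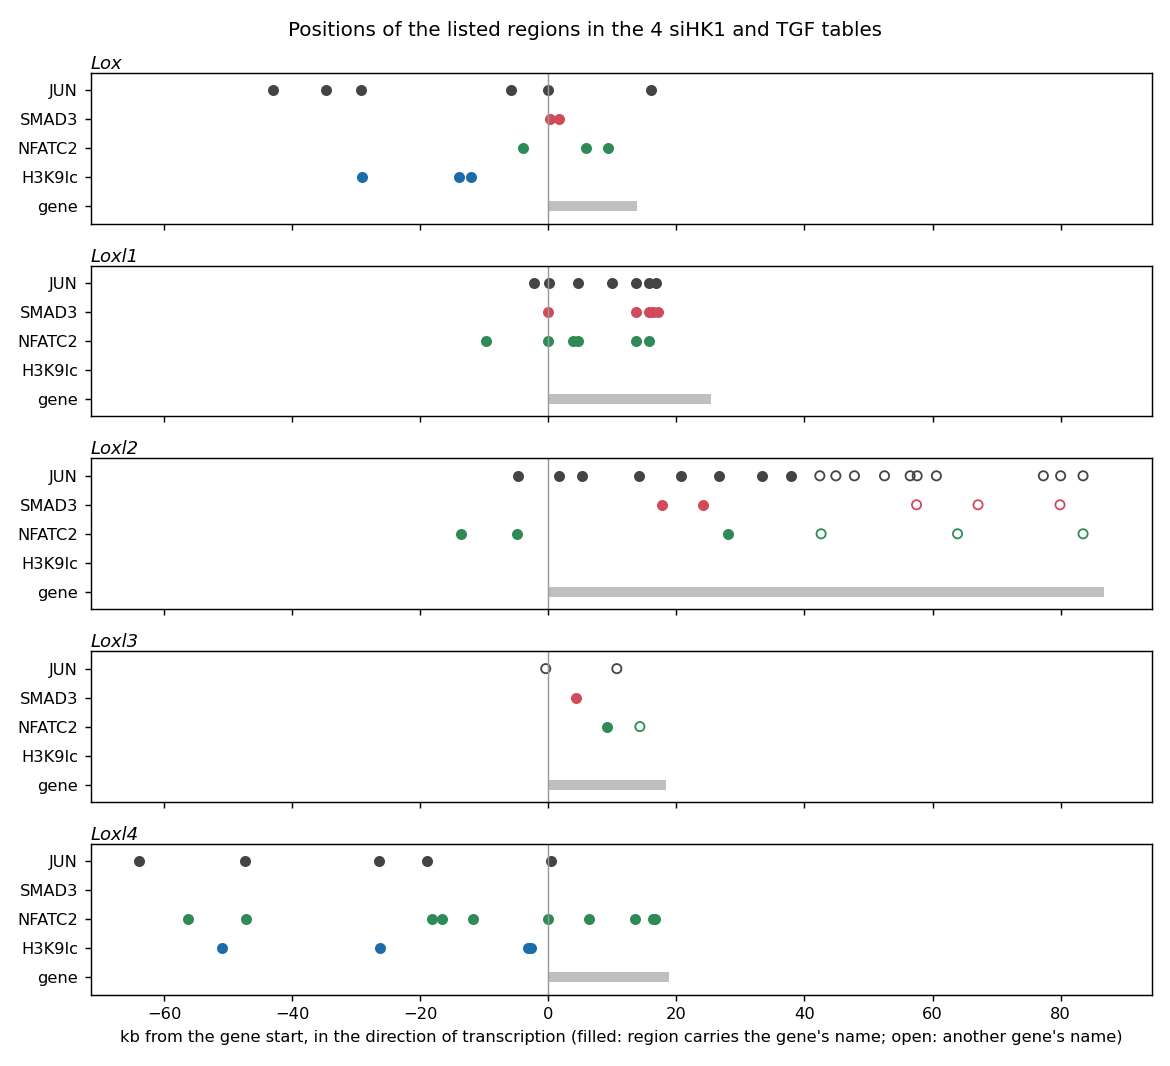
Centres of the regions in the 4 tables of siHK1 and TGF, in kb from the start of each gene along its direction of transcription (grey bar: gene). Filled points carry the gene's own name and open points lie in the gene body or within 3 kb of a start site but carry another gene's name; 10 open JUN points lie in Loxl2.

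JUN was the factor with most reads at the family. The members' JUN regions held 3072 reads in TGF and 1583 in siHK1, a log2 ratio of -0.06 (-0.15 to 0.02) after scaling. Thus the family's share of JUN reads was nearly the same in both libraries; in bulk chromatin, fewer bound cells and less binding per cell cannot be told apart. The median ratio over the 26 regions was -0.14, and -0.04 over all regions of the table. In TGF, 21 of the 26 regions had more reads per kb than the median JUN region, and 17 were marked as a peak in both libraries. In all, 2 regions were called lower and 1 higher, beside 5.56% and 4% of all JUN regions. Without scaling, 13 were called lower and 0 higher, and the summed ratio was -0.96.

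Loxl1 (chr9:58287738-58313186, minus strand) had the highest JUN level per kb in TGF over regions of the gene's own name. Its 7 regions held 990 reads in TGF and 445 in siHK1, or 229 (215 to 244) and 103 (93.8 to 113) raw reads per kb. The ratio of -0.26 (-0.43 to -0.10) lay below equality by more than counting error but was far from 2-fold, and 6 of 7 regions had a ratio below 0. The strongest was the intronic region at chr9:58299038-58299872, with 363 reads in TGF and 182 in siHK1 (log2 ratio -0.10, -0.37 to 0.16), which was in the 99.3rd percentile of all JUN regions by reads per kb in TGF. The region over its start, at chr9:58312684-58313497, held 122 and 55 reads (-0.25, -0.74 to 0.21). No JUN region of Loxl1 was called.

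Loxl2 (chr14:69609068-69695834, plus strand) was the member whose JUN share was higher in siHK1. Its 8 named regions held 707 reads in TGF and 453 in siHK1, a ratio of 0.25 (0.08 to 0.42), and the ratio was below 0 in 2 of them. Its intronic region at chr14:69641938-69642717 held 314 reads in TGF and 141 in siHK1 (-0.26, -0.56 to 0.03) and was in the 99.0th percentile by reads per kb in TGF. A second intronic region, at chr14:69635457-69636129, held 48 reads in TGF and 64 in siHK1, was marked as a peak in siHK1 but not in TGF, and was called higher (1.30, 0.74 to 1.88), a call that ends without scaling (0.41, -0.15 to 0.99). It was the one JUN region of the family with more raw reads in siHK1, the library with fewer reads over all listed regions. The difference of the summed ratio from equality rests on the naming of the regions. The 10 further JUN regions of the gene body that carry the name Mir6950 held 2219 reads in TGF and 1152 in siHK1 (-0.05, -0.16 to 0.05), or 359 and 186 per kb, and 8 of them were above the 90th percentile by reads per kb in TGF. With these counted, Loxl2 held 2926 and 1605 reads, more than any other member, and its ratio was 0.03 (-0.06 to 0.11). Its level was then 282 (272 to 292) reads per kb in TGF and 155 (147 to 162) in siHK1, above Loxl1 in both. One of the 10, at chr14:69651301-69651704, with 85 and 21 reads, passes the rule for lower (-1.10, -1.89 to -0.42), and the other 9 were not called.

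Lox lies on chromosome 18 (chr18:52516067-52529867, minus strand). Its 6 JUN regions held 772 reads in TGF and 375 in siHK1, or 155 (144 to 166) and 75.2 (67.7 to 83.2) per kb, a ratio of -0.15 (-0.33 to 0.03). The region across its start, chr18:52529042-52530762, held 250 reads in TGF and 133 in siHK1 (-0.02, -0.33 to 0.29), so its share was the same within counting error. Per kb, the highest level was not at the start but in a region 29.3 kb upstream, at chr18:52558739-52559560, with 212 reads in TGF and 122 in siHK1 (0.10, -0.24 to 0.42). This upstream region and 3 others lie in introns of the annotated gene AC161119.1, and their link to Lox comes from the authors' annotation alone. A weak region beyond the 3′ end, at chr18:52513699-52514039, with 15 reads in TGF and 1 in siHK1, was called lower (-2.48, -8.41 to -0.31).

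Loxl4 (chr19:42593982-42612813, minus strand) had the lowest JUN level per kb of the 4 members with such regions in TGF. Its 5 regions held 603 reads in TGF and 310 in siHK1, or 122 (113 to 133) and 62.9 (56.1 to 70.4) per kb, a ratio of -0.07 (-0.27 to 0.13). The region over its start held 97 and 46 reads (-0.18, -0.72 to 0.34). The farthest region, 63.9 kb upstream at chr19:42676568-42676937, held 33 reads in TGF and 7 in siHK1 and was called lower (-1.27, -2.77 to -0.14). It was marked as a peak in TGF but not in siHK1.

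In the TGF library the order of JUN levels per kb over the named regions was Loxl1, Loxl2 (169, 157 to 182), Lox and Loxl4, and the counting intervals of Loxl2 and Lox overlapped; by gene body Loxl2 comes first. In siHK1 the order began with Loxl2 (108, 98.4 to 119) and Loxl1, whose intervals overlapped, and those of Lox and Loxl4 overlapped as well. No summed JUN value of a member was called, and of all genes with a JUN region 2.27% were called lower and 2.02% higher. Loxl3 (chr6:83034173-83052562, plus strand) entered JUN only by position. The region named for Dok1, at chr6:83033484-83034101, held 43 reads in TGF and 8 in siHK1 (-1.46, -2.83 to -0.43), which passes the call rule. A second one in its body, named for Mir7040, held 34 and 23 reads (0.34, -0.50 to 1.13).

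**Figure D2:**
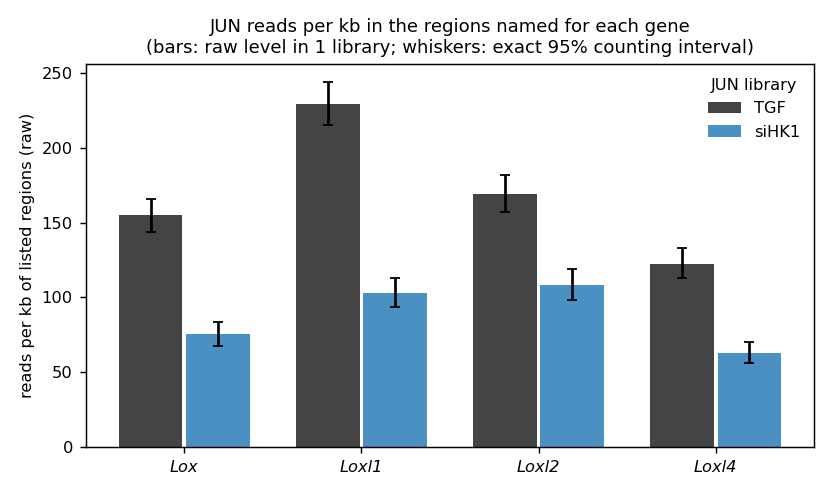
Raw JUN reads per kb of listed regions (y axis) for the 4 members with regions of their own name, in the TGF and siHK1 libraries, with exact 95% counting intervals as whiskers. Over these regions Loxl1 stood highest in TGF at 229 reads per kb and Loxl4 lowest at 122, an order that puts Loxl2 first when its whole gene body is counted, and all siHK1 bars were lower before scaling.

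**Figure D3:**
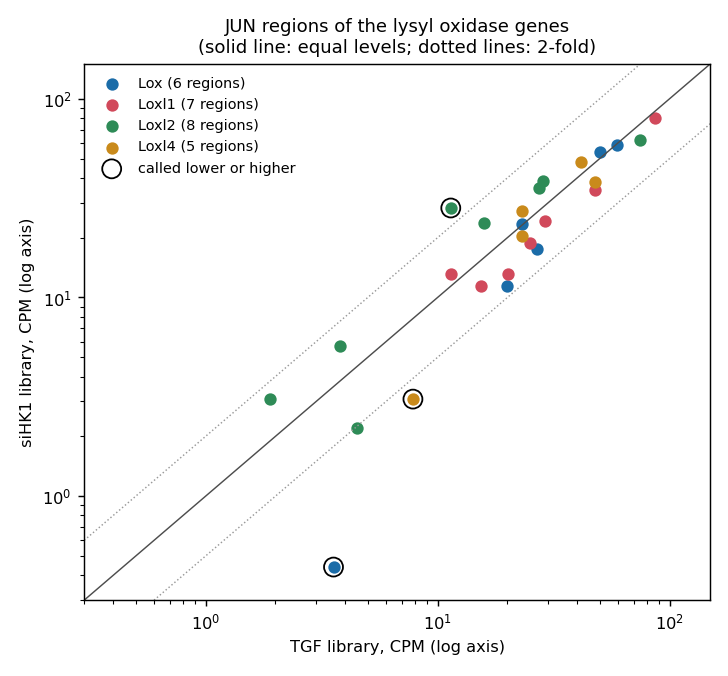
Each point is 1 of the 26 JUN regions, by CPM (reads scaled to equal table totals) in TGF (x axis) and siHK1 (y axis), both on log axes, coloured by gene. Circles mark the 2 regions called lower and the 1 called higher; most others lie close to the line of equal levels.

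SMAD3 reads at the family were few, and their scaled share was higher in siHK1. The 10 regions held 42 reads in TGF and 63 in siHK1, a ratio of 1.07 (0.49 to 1.68), although the siHK1 library held fewer reads over all listed regions. The median over the 10 regions was 0.99, and 0.01 over all SMAD3 regions. Of the 10 regions, 2 were called higher and 0 lower, beside 7.44% and 4.59% of all SMAD3 regions. None was marked as a peak in both libraries: 6 were peaks in siHK1 and 4 in TGF. Both regions called higher were peaks in siHK1 alone, so they entered the table through the library in which they are high. The summed ratio was under 2-fold without scaling (0.58), with the deposited log2 values (0.78) and, narrowly, with scaling to peaks in both libraries (0.99).

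Loxl1 carried most of these reads, although by gene body Loxl2 held more (48 and 61). Its 5 SMAD3 regions held 29 reads in TGF and 45 in siHK1; this sum was called higher (1.12, 0.42 to 1.85). The region near the distal end of its cluster, at chr9:58295949-58296167, held 3 reads in TGF and 13 in siHK1 (2.44, 0.75 to 5.06) and was called higher. The other 4 held 3 and 5, 7 and 4, 9 and 13, and 7 and 10 reads, and 3 of these 4 had a ratio of 0.98 to 1.15 with intervals that include equality. The sum is not called under several alternatives, with ratios of 0.63 without scaling and 0.86 with the deposited log2 values. Lox held 2 reads in TGF and 12 in siHK1 over 2 regions (2.82, 0.91 to 6.28) and was also called higher. All but 3 of the siHK1 reads came from the region over its start, at chr18:52529532-52529860, with 0 reads in TGF and 9 in siHK1. Set against a floor of 3 counts in TGF this is 4.23-fold higher, and the exact interval, which also covers the counting error of the 9 reads, has a lower limit of 1.48 on the log2 scale. Both SMAD3 regions of Lox were peaks in siHK1 alone, so this sum too entered through the library in which it is high. JUN held 250 and 133 reads in a wider region over the same start, marked as a peak in both libraries, with no difference beyond counting error. The 2 factors are therefore not compared on like regions.

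For Loxl2 the 2 named SMAD3 regions held 10 reads in TGF and 3 in siHK1 (-1.09, -3.74 to 0.72), and were not called. The 3 SMAD3 regions of its body named for Mir6950 held 38 and 58 reads (1.10, 0.49 to 1.73), and 2 of them were called higher. Counted by gene body, Loxl2 therefore had a ratio of 0.84 (0.27 to 1.42), on the other side of equality. Loxl3 held 1 read in TGF and 3 in siHK1 (1.72, -1.56 to 7.79), a difference not detectable at this depth, and Loxl4 had no SMAD3 region. At the level of genes, 11.8% of all genes with a SMAD3 region were called higher and 6.42% lower, and 2 of the 4 members with regions were called higher.

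NFATC2 was the factor with regions named for all 5 members, but with few reads in each. The 23 regions held 108 reads in TGF and 79 in siHK1, a ratio of 0.25 (-0.19 to 0.68). The median over these regions was 0.70, in a table whose overall median was 0.41. There were 2 regions called higher and 0 lower, beside 4.79% and 2.06% of all. As for SMAD3, no region was marked as a peak in both libraries, with 10 in TGF and 13 in siHK1, and 1 of the 23 regions reached 20 reads over both libraries.

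Loxl1 held most NFATC2 reads, 50 in TGF and 30 in siHK1 over 6 regions (-0.03, -0.74 to 0.64), and its share was thus nearly equal. Its intronic region at chr9:58299361-58299569, which falls within the strongest JUN region, held 16 and 7 reads (-0.44, -2.02 to 0.87) and was in the 99.2nd percentile of NFATC2 regions by reads per kb in TGF. Loxl4 held 41 and 18 reads over 10 regions (-0.47, -1.38 to 0.34), with ratios from -3.21 to 2.28. Lox held 8 and 3 (-0.58, -3.26 to 1.34). Neither was called. In contrast, Loxl2 held 8 reads in TGF and 20 in siHK1 over 3 regions and was called higher (1.97, 0.78 to 3.41). Within it, the region upstream of the start at chr14:69604014-69604308, which overlaps a JUN region with 67 and 54 reads, held 4 and 9 reads (1.78, 0.03 to 4.02) and was called higher, a call that ends under each of the 3 other scalings, with ratios of 1.08 to 1.75. Loxl3 held 1 and 8 reads in its single named region and was called higher as well (3.20, 0.80 to 9.17). The 3 named regions of Loxl2 and the 1 of Loxl3 were all peaks in siHK1 alone.

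Both NFATC2 calls depend on which regions are given to the gene. The 3 regions in the body of Loxl2 named for Mir6950 held 24 reads in TGF and 6 in siHK1 (-1.22, -2.88 to 0.03). One of them, at chr14:69672809-69673168 with 8 and 0 reads, passes the rule for lower, with an upper limit of -0.07 on the log2 scale. With all 3, Loxl2 had 32 and 26 reads (0.40, -0.41 to 1.19). A further region in Loxl3, named for Mir7040, held 5 and 1 reads, and with it Loxl3 had 6 and 9 reads (1.25, -0.37 to 3.06). Neither is called then, and the intervals of all 5 members include equality, so no difference between members is shown for NFATC2. Of all genes with an NFATC2 region, 7.8% were called higher and 3.4% lower.

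**Figure D4:**
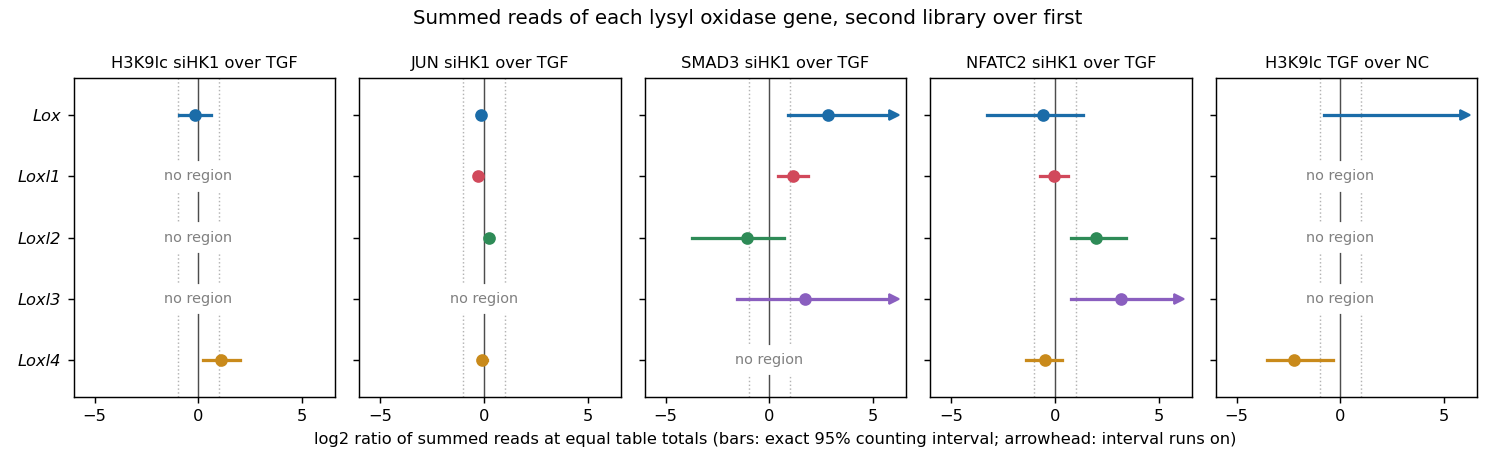
Log2 ratio of the summed reads of each member (points) in the 5 tables, second library over first at equal table totals, with exact 95% counting intervals (bars; arrowheads where the interval runs past the axis). Dotted lines mark 2-fold; no point is drawn for Lox in the NC table, where NC held 0 reads. The JUN points lie within 0.26 of 0, while the sparse SMAD3 and NFATC2 sums spread from -1.09 to 3.20.

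Among regions of the members' own names, Loxl1 held the places where all 3 factor tables overlapped; regions in the gene bodies that carry another name were not counted here. Of the family's 10 SMAD3 regions, 6 overlapped a JUN region by at least 1 bp (60%, beside 23% of all SMAD3 regions), and 5 of these 6 were at Loxl1, the other one being the start of Lox. Of the 23 NFATC2 regions, 7 overlapped a JUN region (30.4%, beside 16.7% of all). From the side of JUN, 5 of 26 regions overlapped SMAD3 (19.2%, beside 18.1%) and 7 overlapped NFATC2 (26.9%, beside 15.4%). The 3 places where all 3 tables overlapped were those of Loxl1 printed above. At these places JUN held 85 and 30, 363 and 182, and 122 and 55 reads in TGF and siHK1, SMAD3 held 7 and 4, 9 and 13, and 7 and 10, and NFATC2 held 13 and 4, 16 and 7, and 9 and 4. None of these 9 differences was called.

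H3K9lc regions were named for Lox and Loxl4, and all of them lay outside the gene bodies. The 7 regions held 66 reads in TGF and 49 in siHK1 (0.39, -0.18 to 0.94), and in TGF none of them exceeded the median H3K9lc region in reads per kb. Lox had 3 regions, 11725, 13654 and 28885 bp upstream by the authors' annotation, in the introns of AC161119.1, with 14 and 6, 21 and 11, and 10 and 6 reads. Their sum of 45 and 23 gave a ratio of -0.14 (-0.95 to 0.60), a difference from the whole table within counting error. All 3 were marked as peaks in TGF and none in siHK1, although their scaled ratios all had intervals that include equality.

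For Loxl4 the 4 H3K9lc regions held 4 and 7, 2 and 8, 11 and 7, and 4 and 4 reads in TGF and siHK1, and the sum of 21 and 26 was called higher (1.11, 0.23 to 2.02). Of these 4 regions, 3 were peaks in siHK1 alone and so entered the table through the library that the call favours, and the one marked in TGF had a ratio of 0.20 (-1.45 to 1.66). The region called higher, 3.2 kb upstream of its start at chr19:42615903-42616099, had a ratio of 2.58 (0.49 to 6.08), and its call ends without scaling (1.77, -0.33 to 5.27). In all, 1 region of the family was called higher and 0 lower, beside 3.47% and 3.33% of all H3K9lc regions, and 2.25% of genes were called higher and 1.79% lower. The call of the Loxl4 sum ends with the deposited log2 values (0.91) and without scaling (0.30).

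H3K9lc and JUN regions coincided at 2 places of the family, of 7 H3K9lc regions (28.6%, beside 5.92% of all H3K9lc regions) and 26 JUN regions (7.69%, beside 6.07%). They were the farthest upstream region of Lox, with 10 and 6 H3K9lc reads, which lies in the strongest JUN region of Lox per kb, and the Loxl4 region at chr19:42639001-42639306, with 11 and 7 H3K9lc reads and 201 and 86 JUN reads. None of these values was called. No H3K9lc region of the family overlapped a SMAD3 or NFATC2 region, beside 6.5% and 6.58% of all H3K9lc regions.

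Against the control, H3K9lc at the family could hardly be compared, because NC held so few reads. The 7 regions held 5 reads in NC and 68 in TGF (-0.68, -1.85 to 1.11). Lox held 0 in NC and 45 in TGF. With equal shares NC would have held 2.25 reads, under the floor of 3 counts, so a gain at Lox was not detectable at this depth. Loxl4 held 5 and 23 reads over 4 regions and was called lower after scaling (-2.23, -3.55 to -0.37), while its raw reads were higher in TGF. Of its 4 regions, 3 were listed because a peak was marked in NC alone, on 2, 2 and 1 NC reads, that is, through the library in which they are high; the part of this listing in the call was not tested. The call also ends with scaling to peaks in both libraries (-1.40, -2.72 to 0.46) and with the deposited log2 values (-1.19, -2.51 to 0.67), and turns to higher without scaling (2.10). In these regions 1 was called lower, at chr19:42638355-42638807 with 2 and 3 reads (-3.84, -6.86 to -0.16), and 0 higher, beside 2.42% and 0.328% of all regions. That region was not called under any of the 3 other scalings. By gene body, Loxl2 held 3 reads in NC and 5 in TGF in a region named for Mir6950, which passes the rule for lower (-3.67, -5.95 to -0.90). Loxl3 held 1 and 6 reads in a region named for Mir7040 (-2.21, -4.78 to 3.79). Each was a peak in NC alone, and neither was read under the other scalings. With them the family ratio was -1.26. Of all genes, 2.94% were called lower and 2.74% higher. The TGF library is the same in both H3K9lc tables, with identical reads in 44088 shared regions, so the comparisons are not independent.

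The other genes of collagen and elastin crosslinking and assembly (45 genes: prolyl and lysyl hydroxylases, procollagen proteases and their enhancers, fibrillar collagens, microfibril and elastic fibre proteins, collagen-binding proteoglycans, and matrix proteins such as fibronectin) were read in the same way by their summed reads. For JUN, all 45 had a region, 1 was called lower and 0 higher, beside 2.27% and 2.02% of all genes, and the median ratio was -0.12, beside -0.01 over all genes. The one called lower was Fn1, which encodes fibronectin, with 43 reads in TGF and 7 in siHK1 (-1.64, -3.12 to -0.56). A count this close to the share over all genes says nothing particular of the list.

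For SMAD3, 17 of the 44 listed genes with a region were called higher and 0 lower, beside 11.8% and 6.42% of all genes, with a median of 1.05 beside 0.20 over all genes. The 2 largest were Mfap5, a microfibril protein, with 7 and 33 reads (2.65, 1.53 to 4.15), and Plod1, a lysyl hydroxylase, with 1 and 6 (2.61, 0.04 to 8.60). For NFATC2, 6 of 40 were called higher and 0 lower, beside 7.8% and 3.4% of all genes, with a median of 0.45 beside 0.21. They included Bmp1, the protease that activates Lox, with 3 reads in TGF and 18 in siHK1 (3.10, 1.51 to 5.69), and Col3a1, a fibrillar collagen, with 8 and 21 (2.04, 0.86 to 3.48). Of all regions, 4.98% for SMAD3 and 3.61% for NFATC2 were peaks in both libraries, so a gene can be listed through the library in which it is high. This also holds for the shares over all genes. The part of this listing in the calls was not tested, and the list was not read under other scalings. It was chosen with earlier results of these data known.

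For H3K9lc, 1 of 33 listed genes was called lower in siHK1, Pcolce2, an enhancer of procollagen processing, with 35 and 9 reads (-1.09, -2.39 to -0.06). Mfap5 was the 1 gene called higher, with 0 and 5 reads, or 2.93-fold against the floor of 3 counts, with an exact lower limit of 0.69 on the log2 scale; its single region held no TGF read, so it is listed through the library in which it is high. Over all genes the shares were 1.79% and 2.25%. In TGF against NC, where 2.74% of all genes were called higher and 2.94% lower, 2 of 34 were called higher and 0 lower: Lum, which encodes the collagen-binding lumican, with 2 reads in NC and 236 in TGF (2.24, 0.69 to 5.61), and Col5a2, a chain of collagen V, with 8 and 371 (1.13, 0.22 to 2.43).

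Lox was the single member with a region in all 4 tables of TGF and siHK1. By the distance between log2(CPM + 1) in these 8 libraries, the most similar of 7876 other genes were Azin1 (1.21), Rerg (1.26) and Fam161a (1.31), with a median distance of 6.18. This is a likeness of summed reads across libraries and is given as a description.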

How the data were processed

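Per the submitters' processing notes, reads were processed with BWA 0.7.12 on mm10, whereas the study's methods name Bowtie2, GRCm39 and MACS2; all 48676 transcripts of the tables found in GENCODE vM21 had the same coordinates there, so coordinates are on GRCm38 and count from 1. The authors deposited, for each region, raw read counts in 2 libraries, a mark of 0 or 1 for a called peak, and normalised log2 values, which served as an alternative scaling. The authors' fold changes, p-values and calls, which the same tables hold, were not used. The library titled TGF was left out because its labels name no antibody, and 2 read-count columns were not used.

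Members and lists were chosen with earlier results of these data known. Counts were taken as deposited, summed per gene by the authors' gene names, and scaled to equal totals over each table. The ratio was log2(count + 0.5), with an exact (Clopper-Pearson) 95% interval for counting error, and calls needed 2-fold and an interval without equality. With 1 library per condition, no test was made. Alternatives were 3 other scalings, a pseudocount of 1, 2-fold alone, regions within 3 kb of a start site, regions with at least 20 reads, and gene assignment by position; assignment by gene body was added after seeing the data. The ratio and its interval were tested on simulated counts in which only regions with at least 20 expected reads were changed. These counts had no PCR copies and no listing of regions by peak. Most SMAD3, NFATC2 and NC-table regions of the family held fewer than 20 reads, so that test does not cover calls on them. Sequences were read from the GRCm38 genome, and motifs were counted in the central 200 bp. Members and their regions were named in full, and of the 45 other genes up to 2 per table and direction with the largest called change. Python 3.11.15, NumPy 2.4.6, pandas 2.3.3, SciPy 1.17.1, pysam 0.24.0 and Matplotlib 3.10.9 were used.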

Additional observations from a re-analysis of the deposited data

How the results depend on the processing

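With no scaling, the log2 ratio of the summed reads of the family was -0.43 for H3K9lc, -0.96 for JUN and -0.45 for NFATC2 in siHK1 over TGF, and 3.64 for H3K9lc in TGF over NC. No scaling gave 13 JUN, 1 SMAD3, 3 NFATC2 and 0 NC-table regions called lower, and 0 H3K9lc, 0 JUN, 1 NFATC2 and 4 NC-table regions called higher. It also turned Loxl4 in TGF over NC to 2.10. Scaling to regions with a peak in both libraries, and the deposited log2 values, each gave 1 NFATC2 region lower, 1 higher, and 0 lower in the NC table. Within 3 kb of a start site the summed ratios were 1.55 for H3K9lc, 1.78 for SMAD3 and -1.12 for NFATC2, and by position 1.55, 1.78 and -1.19; the calls were 0 higher for H3K9lc, JUN and NFATC2 and 1 higher for SMAD3 under both, and for JUN 0 lower within 3 kb and 1 lower by position, where Loxl3 in NFATC2 turned to -1.18. With at least 20 reads the ratios were -0.21 for H3K9lc and -0.44 for NFATC2, with 1 JUN region and 0 in the NC table lower and 0 higher for H3K9lc, SMAD3 and NFATC2. With 2-fold alone, 2 H3K9lc, 5 SMAD3, 9 NFATC2 and 1 NC-table regions were called higher, and 1 SMAD3, 4 NFATC2 and 3 NC-table regions lower. By gene body, added after seeing the data, 4 JUN, 1 NFATC2 and 2 NC-table regions were lower and 4 SMAD3 regions higher. For these results the cause was not tested, apart from the fewer or further regions that each assignment takes.

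Of 114 summed values of single members under the alternatives, 102 stayed within the counting interval, 10 moved outside it and 2 reversed. For sparse sums this interval is wide, as for Loxl3 in SMAD3 (-1.56 to 7.79), so staying within it is no sign of a stable value. For some members, assignment by gene body also took the same regions. A value within the interval could still lose its call, such as Loxl1 for SMAD3 without scaling (0.63). Without scaling, Lox moved to -0.95 for H3K9lc, and for JUN Lox moved to -1.04, Loxl1 to -1.15, Loxl2 to -0.64 and Loxl4 to -0.96. Within 3 kb and by position, Loxl4 moved to -1.62 for NFATC2. By gene body, Loxl2 moved to 0.03 for JUN, 0.84 for SMAD3 and 0.40 for NFATC2. A pseudocount of 1 moved none of the 17. No paired analysis was possible because a single library stood for every condition and antibody, which also leaves none to drop. Most SMAD3, NFATC2 and NC regions hold under 20 reads, where the depth shows only large differences.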
